A study of Rattus norvegicus with 6 samples.

Results

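Slc7a1, Slc7a2, Slc7a5, Slc7a11, Slc3a2 and Slc38a2 encode plasma membrane carriers of arginine and other amino acids, and their expression was examined in sorted endothelial cells of blood vessels from abdominal skin of rats. The 6 genes were chosen by name, as a family in which Slc7a2 varied strongly between cell preparations. Of the 6, 5 had a probeset in the platform annotation, with 1 probeset each, and Slc7a1 had no named probeset, so its level is not analysed here. The 5 measured genes were among 15037 named genes on the array, and all 5 passed the filter on dim genes that left 11515 genes for testing.

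Expression was measured with Affymetrix arrays in 3 IL-33 knock-out rats (animals 28, 27 and 52) and 3 wildtype rats (animals 34, 45 and 37), all of the Sprague-Dawley strain. Animals 52 and 37 were male and the other 4 were female, so each genotype held 2 females and 1 male. Skin had been digested with collagenase and DNase, CD45-positive and Lyve-1-positive cells had been removed, and CD31-positive cells had been kept, with no other treatment named in the labels. The sources used here name neither the age of the rats nor the kind of Il33 deletion nor the number of lines. Every array holds RNA of 1 rat, and values are log2 expression per probeset as deposited.

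Cationic amino acid transporters of the CAT family, which include the products of Slc7a1 and Slc7a2, carry arginine, lysine and ornithine by facilitated diffusion. In endothelium arginine is the substrate from which nitric oxide synthase makes nitric oxide. Slc7a2 gives rise to splice forms of low and of high affinity (CAT2A and CAT2B), and CAT2B is known from macrophages as an inducible form. The products of Slc7a5 (LAT1) and Slc7a11 (xCT) are light chains that reach the membrane bound to a shared heavy chain, 4F2hc, made from Slc3a2. LAT1 brings in leucine and other large neutral amino acids in exchange for glutamine, and xCT brings in cystine in exchange for glutamate. Slc38a2 (SNAT2) takes up glutamine and other small neutral amino acids together with sodium.

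The genotype labels and the cell type were checked on the same arrays. Il33 was 8.07, 8.37 and 9.82 in knockout 28, 27 and 52, against 13.86, 16.32 and 16.60 in wildtype 34, 45 and 37, and it was the 1 gene of 11515 (0.00868%) that passed limma at an adjusted p under 0.05 (adjusted p = 0.0439). The endothelial genes Cdh5 and Plvap lay at 19.62 to 19.90 in all 6 arrays, close to the array maxima of 19.70 to 19.93. Genes so near the maximum can show little of a difference in purity between arrays. Some markers of other cell types were bright too, most of them in part of the arrays. The pericyte gene Rgs5 was 16.49 to 18.68, and Hba-a1 reached 18.29 in knockout 28, Krt15 17.82 in wildtype 34 and Ccl21 17.06 in knockout 27. The lowest values were 11.22 for Hba-a1 in wildtype 45, and 9.18 for Krt15 and 9.91 for Ccl21 in wildtype 37. These 4 genes were among the brightest of their lists. Other listed genes were dim, such as the smooth muscle gene Cnn1 at 3.58 to 4.14, named after its values were seen. Of 14 keratinocyte genes listed, 9 were tested, and their mean was 8.0 to 10.71 in knockout arrays and 7.63 to 13.16 in wildtype arrays. The 8 bacterial and phage spike-in controls, which hold no rat RNA, also fell into 2 sets. Their mean was 8.82 to 9.33 in knockout 27, knockout 52 and wildtype 37 (low spike-in signal) and 10.12 to 10.42 in knockout 28, wildtype 34 and wildtype 45 (high spike-in signal). Both males are in the set of low signal, which holds 2 knockout arrays and 1 wildtype array.

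Slc7a2 (probeset TC1600001707.rn.2) showed a wide spread between animals, and its genotype difference did not pass the test and changed direction between settings. Its log2 expression was 6.36, 10.02 and 10.21 in knockout 28, 27 and 52, against 7.21, 7.66 and 10.66 in wildtype 34, 45 and 37. Each genotype held both high and low animals, so the groups overlapped. The lowest and the highest array, knockout 28 and wildtype 37, differed by 4.30 on the log2 scale, or 19.7-fold. The probeset is annotated to both reference transcripts of the gene and does not tell the CAT2A and CAT2B forms apart.

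The residual SD of Slc7a2 within genotype was 2.03, which ranked 33rd from the top of the 11515 genes tested, while the median over those genes was 0.47. This spread is the property for which the gene was chosen, and it is given as a description. Residual SDs of the other members were 0.96 for Slc7a5, 0.69 for Slc38a2, 0.63 for Slc3a2 and 0.24 for Slc7a11. Slc7a5 thus lay at the 94.5th percentile of all genes for spread, Slc38a2 and Slc3a2 at the 79.6th and 73.7th, and Slc7a11 at the 9.93rd. With the mean of the keratinocyte markers as a covariate, the residual SD of Slc7a2 was 1.05 and that of Slc3a2 was 0.35. With this covariate it was 0.71 for Slc7a5, 0.57 for Slc38a2 and 0.25 for Slc7a11. The spread was thus smaller for every measured member but Slc7a11 once the marker mean was in the model. The cause was not tested, and the change was not set against that of all genes.

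**Figure D1:**
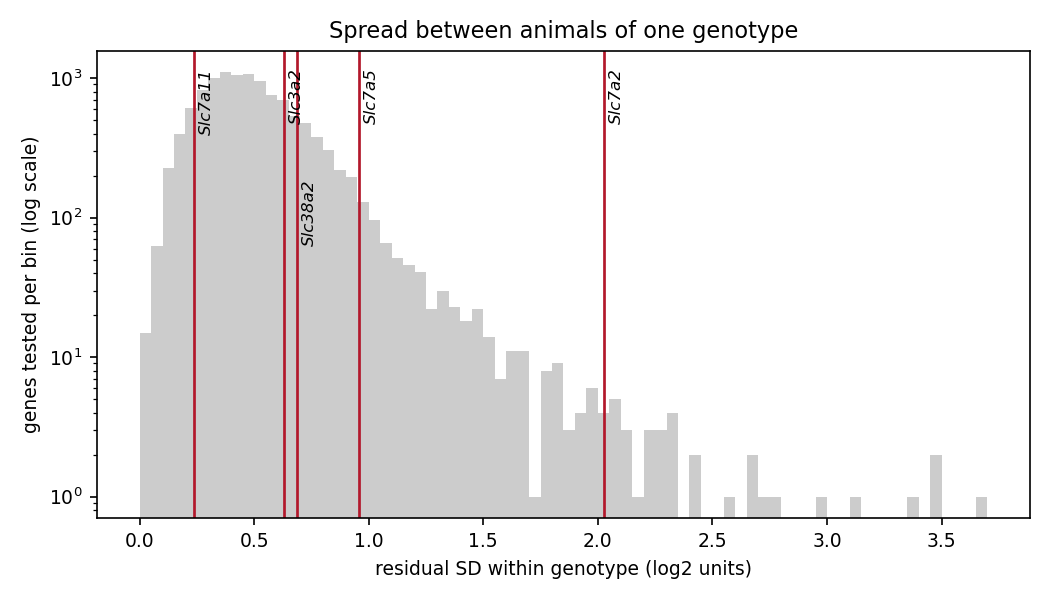
Histogram of the residual SD within genotype (log2 units, x axis) over the 11515 genes tested, with the number of genes per bin on a log y axis and red lines at the 5 transporters. Slc7a2 stands at 2.03 in the upper tail, and Slc7a11 at 0.24 lies left of the bulk of genes.

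Group means of Slc7a2 were 8.86 ± 2.17 in the knockout and 8.51 ± 1.88 in the wildtype (SD, n = 3 each). The difference was 0.35 on the log2 scale (SE 1.11, 95% interval -2.14 to 2.85). It did not pass limma (adjusted p = 0.999 over all genes tested). The difference was -0.32, -0.30, -0.23 and -0.072 without knockout 52, wildtype 34, knockout 27 and wildtype 45, whereas it was 1.61 without knockout 28 and 1.43 without wildtype 37. With spike-in class as a block the difference was -0.81, and with the keratinocyte mean as a covariate -0.82. Both terms take up part of the spread for which Slc7a2 was chosen, so these 2 values are given without a p. Within the arrays of high spike-in signal the difference was -1.08, and within those of low signal it was -0.55, each from 3 animals and without a test.

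**Figure D2:**
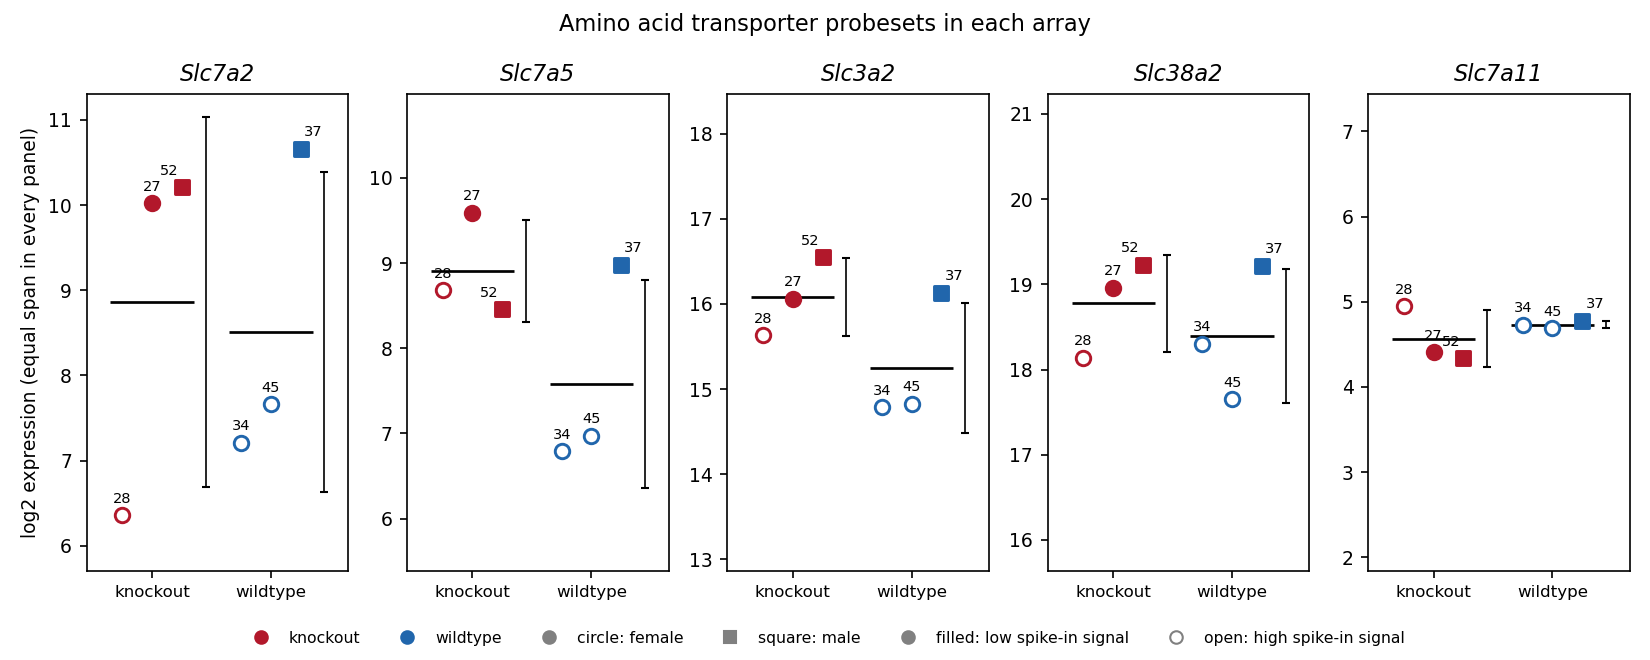
Log2 expression (y axis, the same span in every panel) of the 5 measured transporters in each array, with knockout animals left of wildtype animals, circles for females, squares for males, filled points for low and open points for high spike-in signal; lines are group means and bars are SD (n = 3). For Slc7a2, Slc3a2 and Slc38a2 the filled points lie above the open points.

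Slc7a5 (TC1900001618.rn.2), the light chain of the leucine exchanger, was higher in the knockout on average, with overlapping groups. Its values were 8.68, 9.59 and 8.46 in knockout 28, 27 and 52, against 6.79, 6.97 and 8.98 in wildtype 34, 45 and 37. Wildtype 37 lay above knockout 28 and 52, whereas both wildtype females lay below every knockout animal. Means were 8.91 ± 0.60 in the knockout and 7.58 ± 1.22 in the wildtype (SD, n = 3 each), a difference of 1.33 (SE 0.59, 95% interval 0.015 to 2.64). The unadjusted limma p was 0.0479 and the adjusted p 0.999, so the difference did not pass. An unadjusted p under 0.05 was found for 227 genes, or 1.97% of those tested, and 1.16% had one with the knockout higher. The difference was 2.03 without wildtype 37 (unadjusted p = 0.000911, adjusted p = 0.501). In that fit 967 of 11515 genes had an unadjusted limma p under 0.05, and both wildtype arrays left were of high spike-in signal. Without wildtype 34 the difference was 0.94 (unadjusted p = 0.163). The unadjusted limma p was also above 0.05 without knockout 27 (0.172), wildtype 45 (0.161) and knockout 28 (0.0635). With spike-in class as a block the difference was 0.92 (unadjusted p = 0.0776), and with the keratinocyte mean as a covariate it was 0.85 (unadjusted p = 0.0937). It was 1.80 within the arrays of high spike-in signal and 0.045 within those of low signal.

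By sex, the genotypes differed by 2.26 for Slc7a5 among the 4 females and by -0.52 in the male pair. The genotype by sex term of limma was -2.78 (SE 0.79), with an unadjusted p of 0.00772 and an adjusted p of 0.999. No gene passed for this term after adjustment (0%), and 119 genes, or 1.03%, had an unadjusted p under 0.05. The male side of this comparison is 1 animal of each genotype.

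Slc3a2 (TC0100007216.rn.2), the heavy chain shared by LAT1 and xCT, had values of 15.63, 16.06 and 16.55 in knockout 28, 27 and 52, against 14.79, 14.83 and 16.13 in wildtype 34, 45 and 37. As for its partner Slc7a5, both wildtype females lay below all knockout animals and the wildtype male lay among them. The means were 16.08 ± 0.46 in the knockout and 15.25 ± 0.76 in the wildtype (SD, n = 3 each). The difference of 0.83 (SE 0.45, 95% interval -0.17 to 1.83) did not pass limma (unadjusted p = 0.0933, adjusted p = 0.999). Among females it was 1.04, in the male pair 0.42, and without wildtype 37 it was 1.27. Within the arrays of low spike-in signal it was 0.18 and within those of high signal 0.82. With spike-in class as a block it was 0.50, and with the keratinocyte covariate 0.47.

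Slc38a2 (TC0700003804.rn.2), the sodium-coupled carrier of small neutral amino acids, gave 18.14, 18.96 and 19.23 in knockout 28, 27 and 52, against 18.30, 17.65 and 19.22 in wildtype 34, 45 and 37. The males of the 2 genotypes were nearly equal, and the groups overlapped. Means of 18.78 ± 0.57 in the knockout and 18.39 ± 0.79 in the wildtype (SD, n = 3 each) differed by 0.39 (SE 0.47, 95% interval -0.66 to 1.44; limma adjusted p = 0.999). The difference was 0.80 without wildtype 37 and 0.017 without wildtype 45. It was 0.020 with spike-in class as a block and 0.076 with the keratinocyte covariate. The highest value lay 0.70 below the maximum of its array, close to the upper end of the scale.

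Slc7a11 (TC0200003626.rn.2), the cystine carrier, lay near background in these cells. It measured 4.95, 4.41 and 4.34 in knockout 28, 27 and 52, against 4.73, 4.69 and 4.78 in wildtype 34, 45 and 37. The background probesets of the array had medians of 4.55 to 4.73 and highest values of 5.36 to 5.87. In every array Slc7a11 thus lay near the background median and below the highest background probeset. Its difference of -0.17 (SE 0.32, 95% interval -0.89 to 0.55; limma adjusted p = 0.999) is a difference between values near background, and it was -0.083 with the block and -0.10 with the covariate.

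Across the family, 4 of the 5 measured transporters had the higher mean in knockout animals, as did 54.1% of all genes tested. No member passed limma after adjustment (0 of 5), 1 of 5 (Slc7a5) had an unadjusted p under 0.05, and in none of them did the genotypes separate without overlap, which 3.36% of genes did with the knockout higher and 2.89% with the knockout lower. The median difference of the 5 was 0.39, against 0.037 over all genes tested. In each of Slc7a2, Slc7a5, Slc3a2 and Slc38a2 the wildtype male 37 lay above both wildtype females. Among the cell type markers, 4 of 4 erythroid genes tested were higher on average in the knockout, with list means of 9.44 to 12.90 in knockout arrays and 7.58 to 10.12 in wildtype arrays. Of 11 pericyte and smooth muscle genes 9 were higher in the knockout, with list means of 9.53 to 10.28 in knockout arrays and 8.79 to 10.24 in wildtype arrays. Of 12 blood endothelial genes 10 were higher, with list means of 14.95 to 15.20 in knockout arrays and 14.51 to 14.965 in wildtype arrays. Of 7 lymphatic genes 5 were higher. Lower in the knockout were 8 of 9 keratinocyte, 8 of 11 fibroblast and 6 of 8 leukocyte genes. None of these markers passed limma for genotype, and their part in the differences of the transporters was not tested beyond the keratinocyte covariate.

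**Figure D3:**
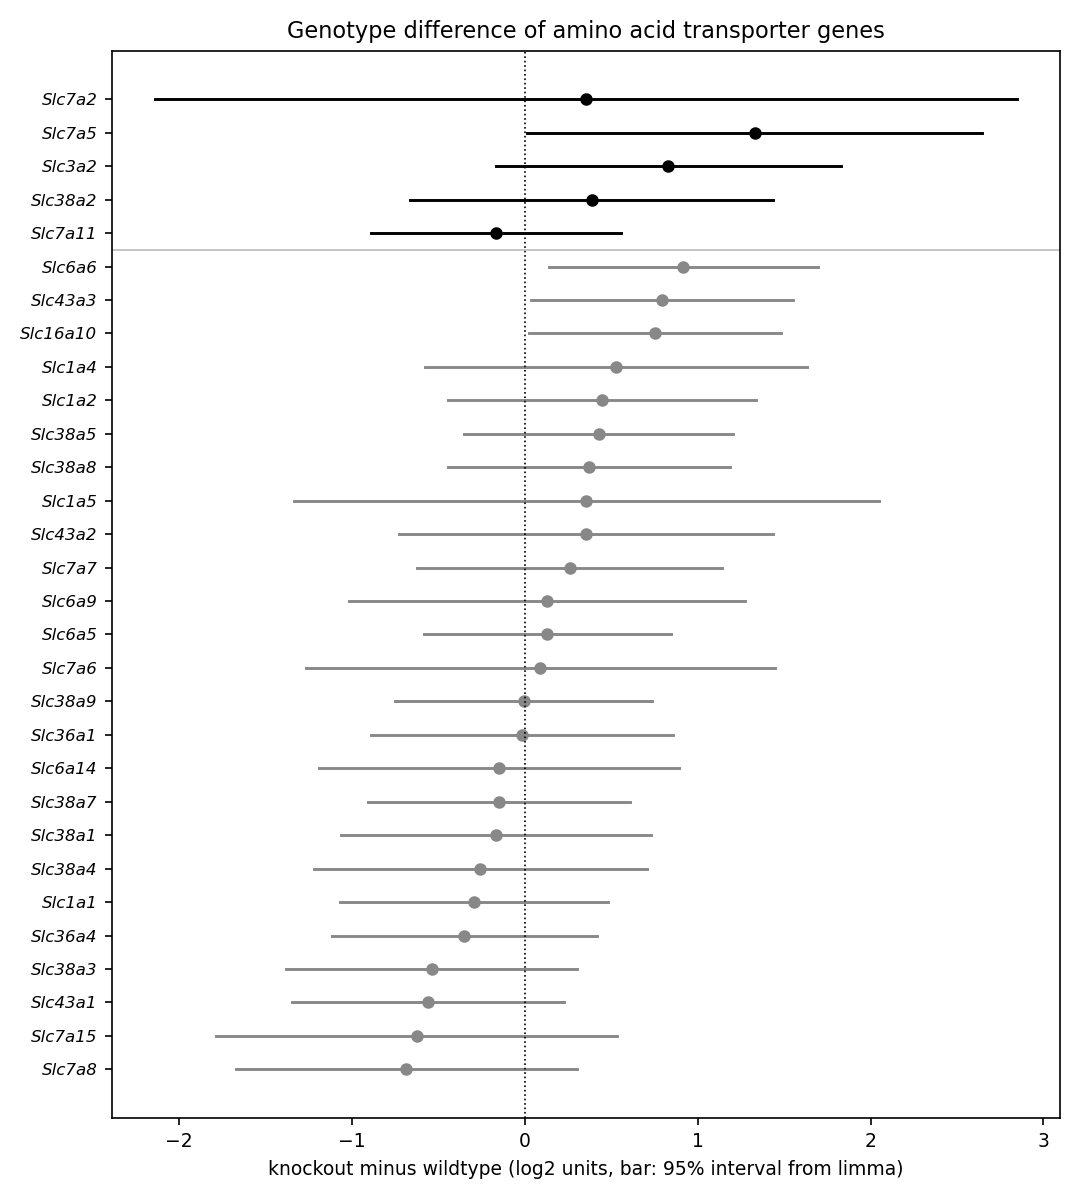
Knockout minus wildtype difference (log2 units, x axis) with its 95% interval from limma. Black (top) are the 5 transporters described here, and grey, sorted by difference, are 25 other genes tested from families of amino acid transporters. Slc7a2 has the widest interval, from -2.14 to 2.85, and Slc7a5, Slc6a6, Slc43a3 and Slc16a10 have intervals above 0 before any adjustment.

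Levels of Slc7a2, Slc3a2 and Slc38a2 followed the division of the arrays by spike-in signal. In each of these 3 genes every array of low spike-in signal (knockout 27, knockout 52, wildtype 37) lay above every array of high signal (knockout 28, wildtype 34, wildtype 45). Such a separation with the low-signal arrays higher was seen in 1996 genes, or 17.3% of those tested, and with the low-signal arrays lower in 844, or 7.33%. Slc7a2 averaged 10.30 in the arrays of low and 7.08 in those of high signal, Slc3a2 16.25 and 15.08, and Slc38a2 19.14 and 18.03. For Slc7a5 the means were 9.01 in low-signal and 7.48 in high-signal arrays, but knockout 28, with 8.68, lay above knockout 52, with 8.46. As the spread of Slc7a2 was the reason for choosing the family, this separation is given without a test.

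Cell type markers moved with the same arrays. All 9 keratinocyte genes tested were lower in every array of low spike-in signal, with list means of 7.63 to 8.17 there and 10.43 to 13.16 in the arrays of high signal. Of 11 fibroblast genes tested 5 (45.5%) were lower in this way and none higher. Of 11 pericyte and smooth muscle genes tested 6 (54.5%) were higher and none lower. Over all genes tested, 7.33% were lower and 17.3% higher in every array of low signal. The mean of 12 blood endothelial genes was 14.95 to 15.20 in the arrays of low and 14.51 to 14.98 in those of high signal. The lymphatic mean was 5.98 to 9.45 in the arrays of low and 8.81 to 9.21 in those of high signal, and the leukocyte mean 5.69 to 6.29 and 6.19 to 7.65. In such bulk samples fewer cells of a type and less RNA per cell cannot be told apart. The part of these markers, or of the amount of RNA labelled, in the levels of the transporters was not tested beyond the keratinocyte covariate and the spike-in block, whose values stand with each gene.

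**Figure D4:**
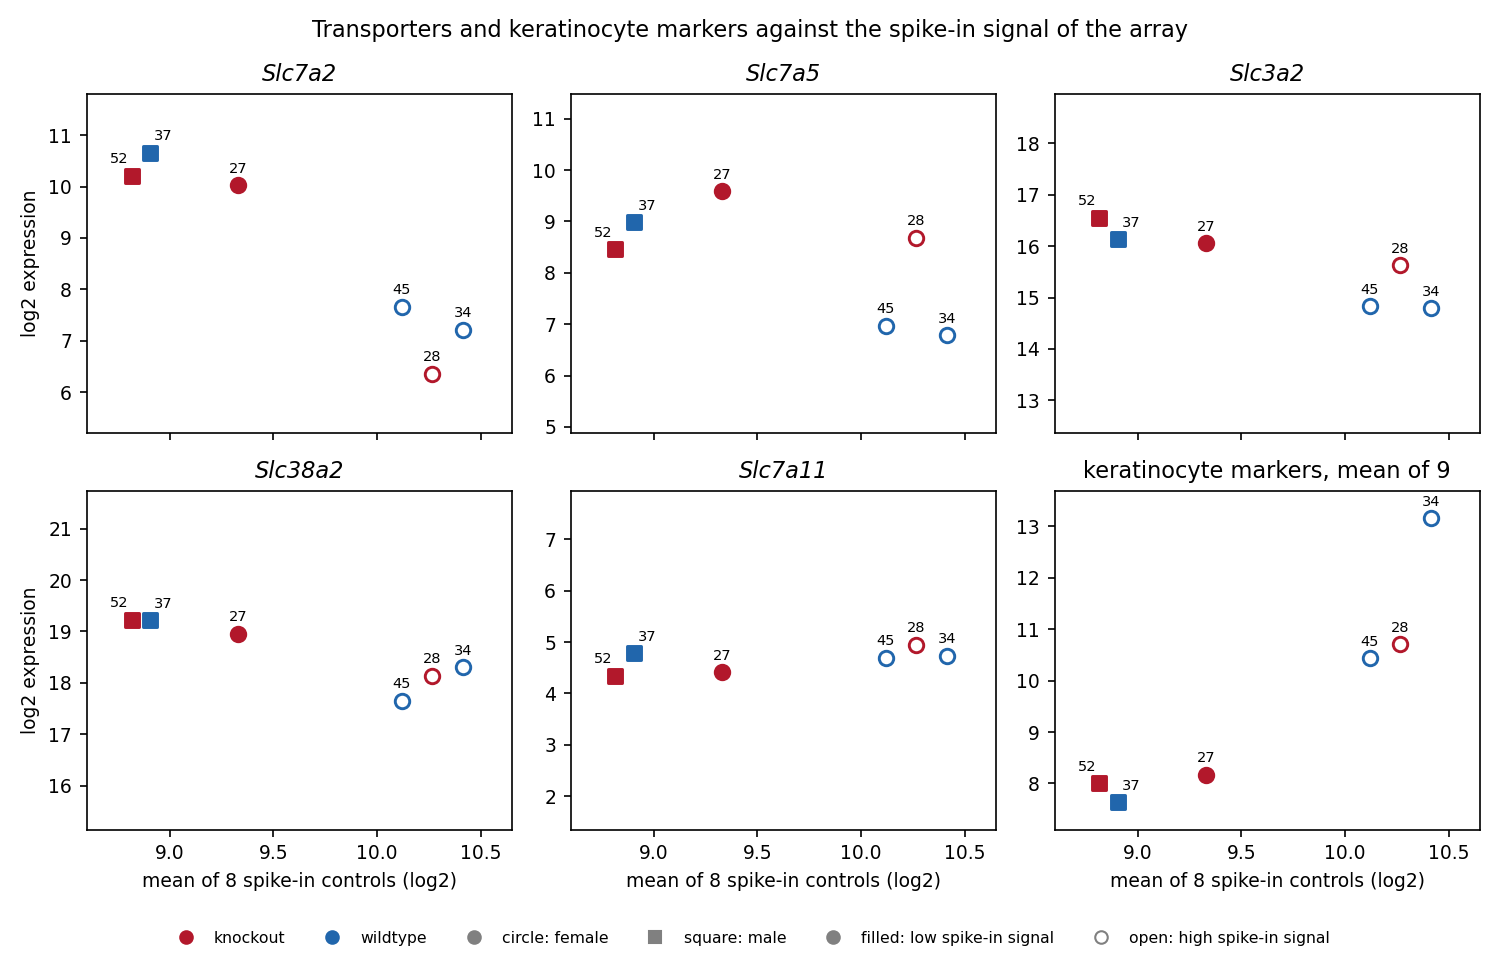
Log2 expression of each transporter, and the mean of 9 keratinocyte markers (y axes, equal span), against the mean log2 signal of 8 spike-in controls per array (x axis); red points are knockout and blue points wildtype animals, squares are males and filled points are arrays of low spike-in signal. Slc7a2 is 10.02 to 10.66 in the filled arrays and 6.36 to 7.66 in the open ones, and the keratinocyte mean runs the other way, 7.63 to 8.17 and 10.43 to 13.16.

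Sex lies along the same division, since both males gave low spike-in signal. Slc7a2 was 10.21 and 10.66 in the males and 6.36, 7.21, 7.66 and 10.02 in the females. Knockout 27, the 1 female of low spike-in signal, was thus closer to the males than to the other females. In a model of genotype and sex the males exceeded the females by 2.62 for Slc7a2 (given without a test), by 1.01 for Slc3a2 (SE 0.33, unadjusted p = 0.0125, adjusted p = 0.169), by 0.96 for Slc38a2 (SE 0.38, adjusted p = 0.225) and by 0.71 for Slc7a5 (SE 0.58, adjusted p = 0.532). Slc7a11 differed by -0.14 (limma adjusted p = 0.848). None of these 4 passed at an adjusted p under 0.05, which 0.0261% of genes did. An unadjusted p under 0.05 for sex was found for 18.7% of all genes tested, and 14.8% of all genes tested had one with the males higher. Markers of lymphatic endothelium also moved with sex: the mean of 7 genes tested was 7.70 and 5.98 in the males 52 and 37 and 8.81 to 9.45 in the females. Ccl21, a chemokine of lymphatic vessels, was lower in the males, with a male minus female difference of -4.49 (limma adjusted p = 0.0322), and it was 1 of the 3 genes called for sex. The part of lymphatic RNA in the sex differences of the transporters was not tested. Sex and spike-in signal cannot be told apart in the males.

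Promoter windows of Slc7a5, Slc3a2 and Slc38a2, well above background here, are shown for their sequence context, from 250 bases before to 50 bases after the annotated gene start, taken from RefSeq on build GRCr8. Of the 6 genes, 5 had a window, with 6 windows in all, and Slc7a2 had none in the table used. Capitals mark matches to TGACNNNGC, the core of the antioxidant response element, on either strand. The core of the response element of CEBP and ATF factors, TGATGNAA, was searched in the same way and had no match in the windows printed. The windows lie on the minus strand, at chr19:66872363-66872662 for Slc7a5, chr1:215048015-215048314 and chr1:215039621-215039920 for an upstream and a downstream start of Slc3a2, and chr7:129742570-129742869 for Slc38a2.
Slc7a5: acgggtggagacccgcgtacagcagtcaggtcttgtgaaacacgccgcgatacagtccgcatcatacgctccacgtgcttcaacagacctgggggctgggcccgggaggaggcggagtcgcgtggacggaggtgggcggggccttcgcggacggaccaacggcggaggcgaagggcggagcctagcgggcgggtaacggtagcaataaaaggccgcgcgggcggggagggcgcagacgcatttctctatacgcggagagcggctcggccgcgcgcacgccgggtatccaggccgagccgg
Slc3a2 upstream start: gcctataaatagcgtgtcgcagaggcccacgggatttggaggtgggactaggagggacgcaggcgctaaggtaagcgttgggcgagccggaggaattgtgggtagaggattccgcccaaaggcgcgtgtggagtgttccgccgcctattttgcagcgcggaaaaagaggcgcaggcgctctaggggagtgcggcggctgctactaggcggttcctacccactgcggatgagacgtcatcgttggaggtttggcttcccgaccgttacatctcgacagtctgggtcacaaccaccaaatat
Slc3a2 downstream start: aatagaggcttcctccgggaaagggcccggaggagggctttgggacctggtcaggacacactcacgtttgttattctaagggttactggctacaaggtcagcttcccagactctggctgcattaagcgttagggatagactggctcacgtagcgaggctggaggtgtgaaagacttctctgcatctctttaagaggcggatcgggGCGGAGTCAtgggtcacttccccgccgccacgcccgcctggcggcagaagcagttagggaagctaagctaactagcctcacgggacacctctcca
Slc38a2: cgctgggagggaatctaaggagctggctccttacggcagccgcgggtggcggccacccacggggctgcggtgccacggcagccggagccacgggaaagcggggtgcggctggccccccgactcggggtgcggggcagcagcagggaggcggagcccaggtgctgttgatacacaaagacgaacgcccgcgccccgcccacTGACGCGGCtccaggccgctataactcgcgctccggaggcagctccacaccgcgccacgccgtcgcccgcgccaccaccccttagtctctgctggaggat
The match at the downstream start of Slc3a2 lay 45 to 37 bases before the start, and the match in Slc38a2 lay 50 to 42 bases before it. TGACNNNGC was present in 12.1% of all 33469 windows of this length and TGATGNAA in 3.98%. The GC content was 69.3% for Slc7a5, 59.3% and 57.3% for the upstream and downstream windows of Slc3a2 and 72.3% for Slc38a2. Among the 6 windows TGATGNAA occurred only in that of Slc7a1, a gene without a named probeset here. A match describes the letters in the window and not a site in use.

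Other genes from families of amino acid transporters did not pass the test for genotype either. Of 47 such genes listed, 44 had a named probeset and 25 were tested. In the knockout 13 were higher and 12 lower, with a median difference of 0.09 and none passing limma. The genes were listed by family, and what each product carries was not examined. The 3 with the highest mean were Slc6a6, Slc1a5 and Slc6a9. Slc6a6, the taurine transporter, was 11.51, 11.35 and 10.77 in knockout 28, 27 and 52, against 10.23, 10.04 and 10.61 in wildtype 34, 45 and 37. The genotypes did not overlap for this gene, with a difference of 0.92 (limma unadjusted p = 0.0256, adjusted p = 0.999). Slc43a3 and Slc16a10, named after their values were seen, also did not overlap, with differences of 0.79 and 0.75 (limma adjusted p = 0.999 each). All their values, 4.04 to 5.36, lay below the highest background probeset of their array. Slc43a3 stands in the list as a member of the Slc43 family and not as a known carrier of amino acids. In all, 3 of the 25 did not overlap with the knockout higher and 0 with it lower, against 3.36% and 2.89% of all genes tested. An unadjusted limma p under 0.05 was found for 3 of the 25, against 1.97% of all genes tested.

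Slc1a5 (ASCT2), an exchanger of glutamine and other neutral amino acids, had the division of Slc7a2. It was 7.97, 10.43 and 9.90 in knockout 28, 27 and 52, against 7.79, 8.99 and 10.45 in wildtype 34, 45 and 37. Arrays of low spike-in signal were all above those of high signal, by 2.01 on average. Slc6a9, a glycine transporter, was 8.03, 8.24 and 8.82 in knockout 27, knockout 52 and wildtype 37, and 7.21, 7.19 and 7.08 in knockout 28, wildtype 34 and wildtype 45. Of the 25 transporters tested 3, or 12%, had this separation, against 17.3% of all genes.

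Of 26 listed genes of arginine use, nitric oxide and polyamines, 24 were tested. In the knockout 15 were higher and 9 lower, the median difference was 0.13, and none passed limma. Sat1, which acetylates spermidine and spermine, was 14.88, 15.60 and 15.54 in knockout 28, 27 and 52, against 14.24, 14.97 and 15.89 in wildtype 34, 45 and 37, with overlapping groups. Differences were 0.55 for Oaz1, an antizyme that restrains polyamine synthesis and uptake, and 0.020 for Azin1, the antizyme inhibitor. Endothelial nitric oxide synthase, Nos3, named after its values were seen, was 10.63, 10.54 and 10.97 in knockout animals and 10.33, 9.31 and 10.71 in wildtype animals 34, 45 and 37. Its difference of 0.60 did not pass (limma adjusted p = 0.999), and wildtype 37 lay among the knockout animals. Inducible synthase Nos2 and the arginases Arg1 and Arg2 lay at 3.24 to 5.45 in all arrays, near background.

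Some polyamine genes in this list were divided by array as Slc7a2 was. Odc1, the enzyme that makes putrescine from ornithine and was named after its values were seen, was 11.42, 11.23 and 11.22 in knockout 27, knockout 52 and wildtype 37, and 10.12, 9.65 and 10.67 in knockout 28, wildtype 34 and wildtype 45. Sat1 and Oaz1 separated in the same direction, by 0.98 and 0.82. In all, 6 of the 24 genes (25%) were higher in every array of low spike-in signal, against 17.3% of all genes. Lower in every such array was 1 of 24 (4.17%), against 7.33% of all genes.

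The response to amino acid shortage runs through the factor Atf4, whose targets in cultured cells include Slc7a5, Slc7a11, Slc3a2 and Slc38a2. All 28 listed genes of this response were tested; 21 were higher and 7 lower in the knockout, with a median difference of 0.22, and none passed limma or had an unadjusted p under 0.05. Atf4 itself was 19.26, 19.33 and 19.42 in knockout 28, 27 and 52, against 18.74, 19.20 and 19.41 in wildtype 34, 45 and 37, close to the upper end of the scale. Atf3 differed by 0.040 and Ppp1r15a, which directs dephosphorylation of eIF2 alpha, by 0.38. Of the 28 genes, 1 (3.57%) was lower in all low-signal arrays, against 7.33% of all genes, and 8 (28.6%) were higher, against 17.3%. Ppp1r15a was among them, at 14.65, 15.27 and 15.15 in knockout 27, knockout 52 and wildtype 37, and 14.02, 13.83 and 13.81 in knockout 28, wildtype 34 and wildtype 45. Asns, the asparagine synthetase used as a readout of this response and named after its values were seen, was 5.28, 6.36 and 6.53 in the knockout and 5.58, 6.37 and 6.87 in wildtype 34, 45 and 37.

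Cystine taken up by xCT feeds glutathione synthesis, and 22 of 23 listed genes of glutathione and of the factor Nfe2l2 were tested. In the knockout 14 were higher and 8 lower, with a median of 0.14 and none passing limma. The ferritin chains Fth1 and Ftl1 differed by -0.050 and 0.91 and thioredoxin Txn1 by -0.053; ferritin genes have many near-identical copies, so their probesets may share signal. Of 20 tested genes of leucine sensing and mTORC1, the kinase complex that LAT1 cargo activates, 8 were higher and 12 lower, with a median of -0.087. Rheb, Rps6kb1 and Rraga, its members of highest mean, differed by 0.067, -0.0067 and -0.037. In these lists 3 of 22 (13.6%) and 1 of 20 (5%) genes were higher in all low-signal arrays, against 17.3% of all genes tested.

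The genes most like Slc7a2 across the 6 arrays were picked by Pearson's r among 523 genes with a residual SD of at least 1, and r is given as a measure of likeness only. They were Pi15 (r = 0.998), Eno1 (0.990), Mall (0.984), Cxcl10 (0.983), Cyb5b and Rhbdd1 (0.980 each), and Mgp and Mas1l (0.977 each). Pi15, a secreted peptidase inhibitor, was 5.87, 8.97 and 9.32 in knockout 28, 27 and 52, against 6.83, 7.03 and 9.70 in wildtype 34, 45 and 37. Cxcl10, a chemokine induced by interferons, was 10.16, 13.02 and 13.86 in knockout 28, 27 and 52, against 10.21, 10.90 and 13.95 in wildtype 34, 45 and 37. All 8 genes had every low-signal array above every high-signal array, as Slc7a2 did. This follows largely from picking them by likeness to Slc7a2, so it is not a separate result. An r above 0.9 was reached by 100 of the 523 genes, or 19.1%, so many of these genes of wide spread had a similar pattern across the arrays. The order of the arrays within each set was not the same in all of them.

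The closest genes to the other members, among 7887 genes whose values spanned at least 1, were Retreg3 (r = 0.997) and Nmnat1 (0.991) for Slc7a5, Cd59b (0.996) and Rcbtb2 (0.993) for Slc3a2, and Limd1 (0.997) and Vamp7 (0.994) for Slc38a2. For Slc7a11, near background, they were Vav1 (0.975) and Neto2 (0.963). An r above 0.9 was found for 5.96% of these genes with Slc3a2, 5.91% with Slc38a2 and 1.48% with Slc7a5. Correlations between the members themselves are not given, because the arrays fell into 2 separate sets of 3 for Slc7a2, too few for a value within a set.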

How the data were processed

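Biotin-labelled total RNA was put on Affymetrix arrays (labels' protocols). The deposited log2 expression values come from RMA as run by the authors, and Expression Console is the software that the submitters' processing notes name. Versions and probeset library were not stated. The values reach 19.93, high for log2 intensities, and every fold rests on this reading of the scale. Gene names came from the platform annotation, whose 15049 identifiers were all found in RefSeq (GRCr8); 10 genes had several probesets, and the brightest on average stood for the gene. The filter on dim genes removed those averaging less than 3.52, the 25th percentile over 24834 probesets.

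Knockout was compared with wildtype over 11515 genes with limma 3.58.1 in R 4.3.3 (lmFit, then eBayes), genotype alone in the design, two-sided, Benjamini-Hochberg adjusted over all genes, threshold 0.05; sex was tested beside genotype and as an interaction. With 3 animals against 3, the smallest p of an exact permutation test is 0.1. Precision is limited by having 6 arrays; the median SE of a difference was 0.387. Spike-in class was split at the midpoint (9.62) of the range of array means. The script was tested on simulated data. The members and lists were chosen with earlier results of these data known. Named are the members, Il33, the 3 genes of highest mean in each pathway list, those passing, and the genes most like each member (8 for Slc7a2, 2 for the others); genes outside this rule are marked as named after their values were seen. For each cell type marker list the plan was to name the 3 genes of highest mean, but only some of these are named here. Alternatives were other filters, normalization again, centring, covariates, females only, other eBayes options, array weights, the mean of a gene's probesets, and each array left out; the differences within spike-in sets and in the male pair were added after seeing the data.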

Additional observations from a re-analysis of the deposited data

Results flagged for a closer look

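The genotype difference of Slc7a5 ran in opposite directions among females and between the 2 males. Both knockout females (8.68 and 9.59) lay above both wildtype females (6.79 and 6.97), while the knockout male (8.46) lay below the wildtype male (8.98). The difference between the sexes was -2.78 on the log2 scale (limma, unadjusted p = 0.00772, adjusted p = 0.999), so it did not pass after adjustment, and it rests on 1 male of each genotype. The 2 wildtype females and 1 of the 2 knockout females were arrays of high spike-in signal, and both males were arrays of low signal; the part of that signal in the difference was not tested.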

How the results depend on the processing

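Under the 17 alternatives planned, no member passed limma for genotype after adjustment in any of 84 values, and 6 of them, all for Slc7a2, reversed the direction of the genotype difference. These were -0.81 with spike-in class as a block, -0.82 with the keratinocyte mean as a covariate, and 4 of the 6 values without 1 array, which ran from -0.32 to 1.61 (-0.30 without wildtype 34, -0.23 without knockout 27, -0.072 without wildtype 45). Without 1 array the difference ran from 0.94 to 2.03 for Slc7a5, 0.60 to 1.27 for Slc3a2, 0.017 to 0.80 for Slc38a2 and -0.36 to -0.053 for Slc7a11. With the spike-in block and with the keratinocyte covariate the difference was 0.92 and 0.85 for Slc7a5, 0.50 and 0.47 for Slc3a2, and 0.020 and 0.076 for Slc38a2; with array weights Slc7a2 was 1.08. Among the values added later, Slc7a2 was -1.08 and -0.55 within the arrays of high and low spike-in signal and -0.45 in the male pair, Slc7a11 was 0.24 within high signal, Slc38a2 was -0.13 within low signal, and Slc7a5 was -0.52 in the male pair. The cause of these reversals was not tested. The sex difference without 1 array ran from -0.34 to 0.07 for Slc7a11 (0.010 without knockout 28) and from -0.68 to 2.10 for Slc7a5, and that of Slc7a2 from 1.92 to 3.49 (highest without knockout 27). The single gene called, Il33, became 0 without the filter, with the filter at the 50th percentile and in females only, and 0 to 1 without 1 array (1 only without wildtype 34); at an unadjusted p under 0.05 limma then gave 335, 140 and 620 genes, and 111 to 967 without 1 array. With the filter at the 50th percentile Slc7a11 was not tested. With the keratinocyte covariate the residual SD was 1.05 for Slc7a2, 0.35 for Slc3a2, 0.71 for Slc7a5, 0.57 for Slc38a2 and 0.25 for Slc7a11. No paired analysis was run, because the labels do not say whether animals of the 2 genotypes were matched.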

Other observations

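Further light chains that pair with Slc3a2 were measured, and they are named after their values were seen. Slc7a7 (y+LAT1), which exchanges cationic for neutral amino acids, was 7.74, 7.22 and 7.77 in knockout 28, 27 and 52, against 6.92, 7.0 and 8.03 in wildtype 34, 45 and 37, with overlapping groups and a difference of 0.26. Slc7a6 (y+LAT2) was 4.81, 5.79 and 5.40 in the knockout, against 3.81, 6.42 and 5.50 in the wildtype, a difference of 0.09. Most of the values of Slc7a6 lay below the highest background probeset of their array. Slc7a8 (LAT2), a second carrier of neutral amino acids, was 4.18, 4.75 and 5.24 in the knockout, against 6.05, 5.50 and 4.68 in the wildtype. Its difference of -0.69 was opposite in direction to that of Slc7a5 and did not pass (limma adjusted p = 0.999), and most of its values lay near background.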
